A study of Mus musculus with 9 samples.

Results

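Serine palmitoyltransferase and the enzymes that turn its product into ceramide were described through 10 genes out of 54986 gene IDs in the deposited expression tables. These were the small subunits Sptssa and Sptssb, the large subunits Sptlc1 and Sptlc2, the inhibitors Ormdl1, Ormdl2 and Ormdl3, the ceramide synthases Cers2 and Cers4, and the desaturase Degs1. The members were chosen by gene name with their TPM in these libraries already known. Their own differences between groups are therefore given as a description, and no p-value of a member is printed. Where a member is said to be called or not, this tells only on which side of the limma threshold given below it fell. It is no test of a member. TPM is the authors' abundance estimate per kilobase of transcript, and scaled so that every library has an equal total. Total RNA had been sequenced from primary embryonic fibroblasts of C57BL/6 mice in 3 groups of 3 libraries. One group overexpressed Zscan4f, a zinc finger gene known for brief expression in early mouse embryos and embryonic stem cells. Another overexpressed Zscan4f3A, a variant of it by its name, and the control group had no overexpressed gene named in its titles. Every library, control included, was labelled D4-OSKM-2ndMEFs. OSKM is the usual short form for the reprogramming factors Oct4, Sox2, Klf4 and Myc. The sources used here give neither the vector and promoter nor the meaning of D4 or the changes in Zscan4f3A. Nor do the labels say whether the 3 libraries of a group came from separate cultures, so any p-value measures only the spread between these libraries.

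Serine palmitoyltransferase joins serine and a fatty acyl-CoA in the endoplasmic reticulum, which is the entry step and the main control point of sphingolipid synthesis. SPTLC1 pairs with a catalytic SPTLC2 or SPTLC3 subunit, and a small subunit raises its activity and helps set which acyl-CoA is used, with SPTSSB favouring a longer chain than SPTSSA. ORMDL proteins bind the complex and hold it back when ceramide is plentiful. The product is reduced to dihydrosphingosine, acylated by a ceramide synthase, each of which prefers certain acyl chain lengths, and converted by DEGS1 to ceramide, the parent of sphingomyelin and glycosphingolipids.

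All 10 members had an entry in the RefSeq promoter table, whose build is GRCm38.p6. The 250 bases before the RefSeq start are shown for the small subunit that differed most between groups, for the other small subunit, whose groups overlapped, and for the 2 other members called in both comparisons of the Zscan4f libraries. Each is written 5′ to 3′ on the gene's strand with CpG dinucleotides in capitals. In order, they lie at chr3:69859895-69860144 on the minus strand, chr12:54656573-54656822 on the minus strand, chr10:128821630-128821879 on the minus strand and chr8:4493155-4493404 on the plus strand. The Cers4 window lies wholly within the gene span of the expression tables, chr8:4493026-4531680, so it is not upstream of that start. The Sptssb, Sptssa and Ormdl2 windows also reach into their gene spans, which begin on the minus strand at 69859940, 54656573 and 128821645.
Sptssb: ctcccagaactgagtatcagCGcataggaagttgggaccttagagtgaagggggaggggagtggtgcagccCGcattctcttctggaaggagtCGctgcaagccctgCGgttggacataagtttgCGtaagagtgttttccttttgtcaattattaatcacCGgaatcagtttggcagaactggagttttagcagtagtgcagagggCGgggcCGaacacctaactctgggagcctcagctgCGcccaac
Sptssa: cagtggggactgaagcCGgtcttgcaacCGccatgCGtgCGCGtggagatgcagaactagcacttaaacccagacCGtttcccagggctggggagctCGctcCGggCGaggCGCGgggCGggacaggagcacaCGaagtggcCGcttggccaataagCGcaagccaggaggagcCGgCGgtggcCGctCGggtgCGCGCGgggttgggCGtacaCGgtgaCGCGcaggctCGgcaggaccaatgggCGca
Ormdl2: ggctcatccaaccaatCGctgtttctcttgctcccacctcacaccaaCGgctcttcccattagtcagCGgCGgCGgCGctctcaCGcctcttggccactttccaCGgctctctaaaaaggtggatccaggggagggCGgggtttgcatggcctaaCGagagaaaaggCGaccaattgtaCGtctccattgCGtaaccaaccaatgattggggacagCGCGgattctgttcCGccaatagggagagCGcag
Cers4: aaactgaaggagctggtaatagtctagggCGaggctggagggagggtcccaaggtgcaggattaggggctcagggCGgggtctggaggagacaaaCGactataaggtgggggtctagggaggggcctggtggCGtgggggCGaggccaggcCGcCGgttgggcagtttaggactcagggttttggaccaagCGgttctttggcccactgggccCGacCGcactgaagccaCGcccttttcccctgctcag
The Sptssb sequence held 9 CpG and was 53.2% G or C, and the Sptssa sequence held 28 CpG at 68.8% G or C. Ormdl2 had 17 CpG and Cers4 had 11. The median over 32851 RefSeq promoters of the same length was 6 CpG and 52.4% G or C, and 62.2% of them had no more CpG than Sptssb, against 93.2% for Sptssa. The letters CCAAT, searched on both strands, occurred 5 times before Ormdl2 and 2 times before Sptssa, and not in the windows of Sptssb or Cers4. They were present in 33.8% of all promoters. The letters GGGCGG, also searched on both strands, occurred 1 time in each of the 4 windows and in 32.7% of all promoters. The letters TATAAA were in none of the 4 windows and in 12.4% of all promoters. These are matches of letters only.

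Zscan4f itself, which checks the labels, had 570, 565 and 558 TPM in the Zscan4f libraries, 827, 836 and 654 TPM in the Zscan4f3A libraries, and 0.330, 0 and 0.960 TPM in the control libraries. Aligned sequence, estimated from the ratio of the authors' coverage to their FPKM, ran from 3.31 to 8.39 gigabases per library and was lowest in Zscan4f3A replicate 3. All 12 fibroblast markers examined were present, with a summed level of 15817 to 15999 TPM in Zscan4f libraries, 15556 to 15928 TPM in Zscan4f3A libraries and 15670 to 15742 TPM in control libraries; 4 were called higher and 6 lower in Zscan4f than in control. Markers of simple epithelium summed to 133 to 142 TPM in Zscan4f libraries, 60.5 to 65.8 TPM in Zscan4f3A libraries and 58.6 to 62.3 TPM in control libraries. Of these 12 markers 5 were called higher in Zscan4f than in control and 0 lower, while Krt7, Cldn7, Esrp1, Grhl2 and Ovol1 stayed below 1 TPM in every group. Keratinocyte markers summed to 112 to 127, 63.3 to 67.0 and 55.9 to 60.2 TPM in the Zscan4f, Zscan4f3A and control libraries, with 2 of 12 called higher and 2 lower in Zscan4f than in control, and Krt14 was the largest part of the sum in each group. Macrophage markers summed to 24.1 to 25.6, 16.4 to 18.6 and 15.5 to 18.5 TPM in the same order, with 1 of 8 called higher, Cd68, which made up most of the sum, and Ptprc and Adgre1 were below 1 TPM throughout. Endothelial markers summed to 46.4 to 47.8, 33.3 to 34.7 and 31.0 to 34.0 TPM, but nearly all of it was Tek, the 1 of 8 called higher, at 45.0, 31.6 and 30.9 TPM on average, with Cldn5 at 0 in every library and Pecam1, Cdh5 and Kdr below 1 TPM. The sums other than that of the fibroblast markers were higher in every Zscan4f library than in any other, and their part in the results given here was not tested.

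All 10 members passed the filter on low values, TPM of at least 1 in at least 3 libraries. In control libraries Cers2 was the most abundant at 216 ± 20.7 TPM (SD, n = 3, as for every group mean given here), followed by Degs1 at 134 ± 1.35 TPM and Ormdl3 at 68.9 ± 1.49 TPM. Sptlc2, Sptssa and Sptlc1 came next at 59.6, 59.0 and 52.0 TPM, where the ranges of Sptlc2 and Sptssa overlapped. Cers4 at 40.4 TPM and Ormdl2 at 39.7 TPM overlapped too, Ormdl1 was at 19.2 TPM and Sptssb was last at 1.34 TPM. In Zscan4f libraries the order changed in the middle. Ormdl2 was then 51.6 TPM, just below Sptlc1 at 55.6 TPM and overlapping it, Cers4 was 27.4 TPM, and Sptssb was still the lowest.

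**Figure D1:**
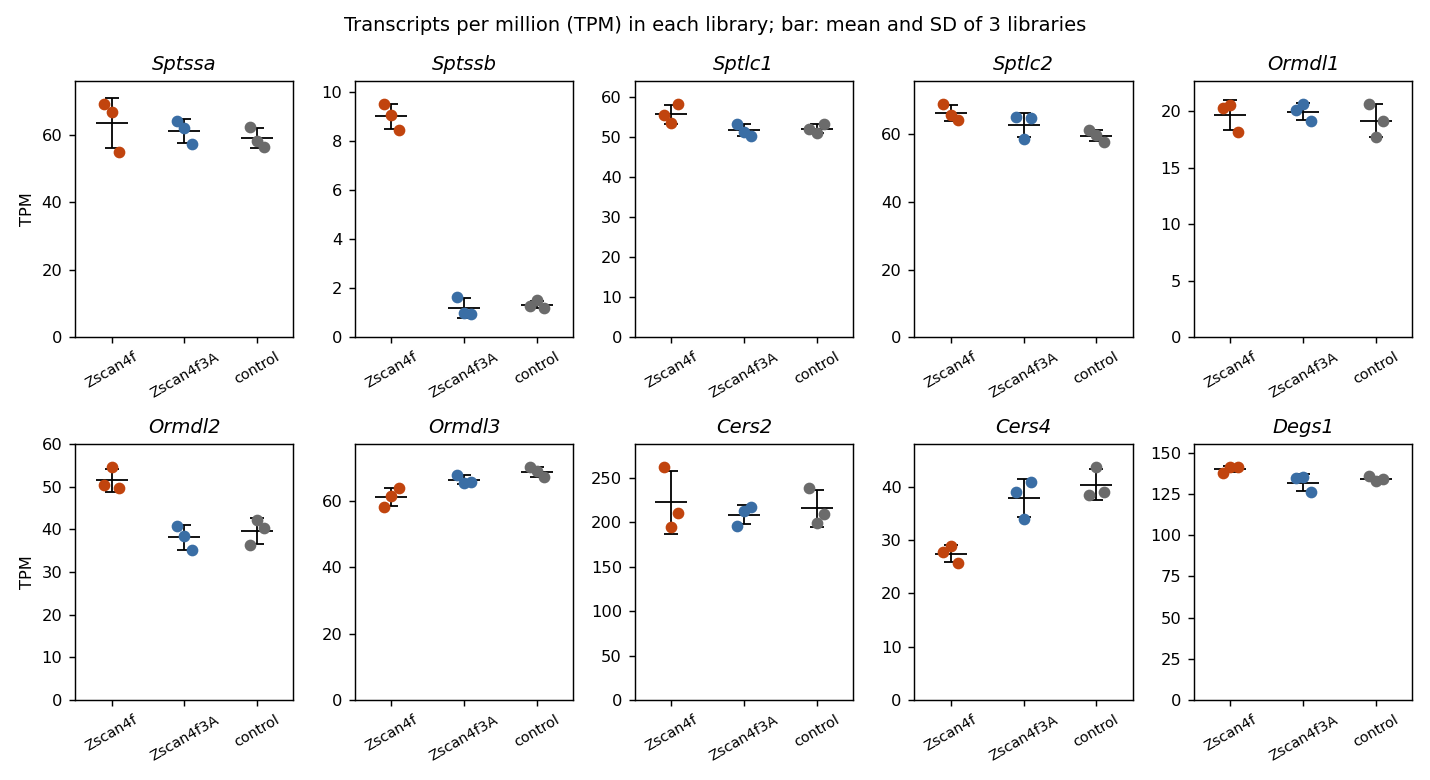
TPM of the 10 members in each of the 9 libraries, 1 panel per gene, with Zscan4f left, Zscan4f3A in the middle and control right; points are libraries and bars mark the mean with its SD. Sptssb is at 8.47 to 9.51 TPM in Zscan4f libraries and at most 1.65 TPM in the other 6.

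Sptssb, the small subunit that favours longer acyl-CoA, differed most. Its level was 9.51, 9.07 and 8.47 TPM in Zscan4f libraries, 1.65, 1.01 and 0.941 TPM in Zscan4f3A libraries, and 1.29, 1.52 and 1.22 TPM in control libraries. The 3 Zscan4f libraries lay above all the others, while the Zscan4f3A and control libraries overlapped. Its mean was 9.02 ± 0.523 TPM in Zscan4f libraries against 1.34 ± 0.157 TPM in control libraries, a ratio of 6.73. On the log2(TPM + 1) scale, which understates changes of genes this low, the difference was 2.10 (SE 0.14). Against Zscan4f3A libraries, which averaged 1.20 ± 0.391 TPM, the ratio was 7.51 and the difference 2.20 (SE 0.14). For Zscan4f3A over control the difference was -0.10 (SE 0.14). The mean read depth over the gene was 20.2 to 23.7 in Zscan4f libraries, 1.24 to 3.29 in Zscan4f3A libraries and 2.96 to 3.60 in control libraries, so the low values rest on few reads. Sptssb (ENSMUSG00000043461.13) lies at chr3:69819542-69859940 on the minus strand of GRCm38. In bulk RNA, more cells that express a gene and more RNA per cell cannot be told apart.

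Sptssa, the other small subunit, showed no such difference. It had 69.0, 66.6 and 55.0 TPM in Zscan4f libraries, 64.2, 62.1 and 57.2 TPM in Zscan4f3A libraries, and 62.3, 58.1 and 56.5 TPM in control libraries. All 3 groups overlapped, and the log2 difference was 0.10 (SE 0.09) for Zscan4f over control and 0.05 (SE 0.09) for Zscan4f3A over control. Sptssa (ENSMUSG00000044408.7) lies at chr12:54645392-54656573. Since TPM is per length, the small subunits can be set against each other. Sptssb made up 12.1%, 12.0% and 13.3% of the summed TPM of both small subunits in Zscan4f libraries, 2.51%, 1.60% and 1.62% in Zscan4f3A libraries, and 2.02%, 2.54% and 2.11% in control libraries. Sptssa was thus the main small subunit transcript in every library.

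The large subunits differed little. Sptlc1, the shared subunit, ran from 53.4 to 58.1 TPM in Zscan4f libraries, 50.3 to 53.2 TPM in Zscan4f3A libraries and 50.8 to 53.1 TPM in control libraries. The Zscan4f libraries lay just above both other groups, and the log2 difference from control was 0.09 (SE 0.05), which was not called. Sptlc2, the catalytic subunit, ran from 64.2 to 68.8 TPM in Zscan4f libraries, 58.7 to 65.0 TPM in Zscan4f3A libraries and 57.8 to 61.2 TPM in control libraries. It was above control without overlap, by 0.15 (SE 0.05) on the log2 scale, and was not called either. The ratio of Sptlc1 to Sptlc2 was 0.840 ± 0.056 in Zscan4f libraries, 0.824 ± 0.049 in Zscan4f3A libraries and 0.873 ± 0.040 in control libraries. Sptlc3, the alternative catalytic subunit, was listed at 0 in 8 libraries and at 0.0366 TPM in Zscan4f replicate 2.

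The 3 genes for ORMDL inhibitors differed from control in unlike ways in Zscan4f libraries. Ormdl2 had 50.4, 54.6 and 49.7 TPM in Zscan4f libraries, 40.9, 38.5 and 35.1 TPM in Zscan4f3A libraries, and 36.4, 42.2 and 40.3 TPM in control libraries. The Zscan4f libraries were above all others. The ratio of means was 1.30 over control (log2 difference 0.37, SE 0.08) and 1.35 over Zscan4f3A (0.43, SE 0.08). The whole span of Ormdl2 (ENSMUSG00000025353.5, chr10:128817902-128821645) overlaps Sarnp on the other strand, and 1545 bases overlap Dnajc14. Sarnp averaged 123 ± 5.78 TPM in Zscan4f libraries, 111 ± 2.76 TPM in Zscan4f3A libraries and 110 ± 4.35 TPM in control libraries, and was called higher in Zscan4f than in control (limma adjusted p = 0.040). Over Zscan4f3A the ratio of means of Sarnp was 1.11, and it was not called (limma adjusted p = 0.070). The labels do not state whether reads were counted by strand, and only gene spans were compared here, not exons. How far reads of Sarnp entered the Ormdl2 values was not tested.

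Ormdl3 had 58.3, 61.6 and 63.9 TPM in Zscan4f libraries, 67.9, 65.4 and 65.9 TPM in Zscan4f3A libraries, and 70.3, 69.1 and 67.3 TPM in control libraries. Zscan4f libraries were the lowest, without overlap with either other group, but the size was small, with a ratio to control of 0.889 and a log2 difference of -0.17 (SE 0.04). Against Zscan4f3A the log2 difference was -0.11 (SE 0.04) and was not called. Leaving out Zscan4f replicate 1 or 2, or any 1 control library, ended its call against control, with log2 differences of -0.20 to -0.13 over all 17 alternatives. Ormdl1 ran from 18.1 to 20.5 TPM in Zscan4f libraries, 19.1 to 20.6 TPM in Zscan4f3A libraries and 17.7 to 20.6 TPM in control libraries, fully overlapping. The summed level of the 3 genes was 132 ± 3.91 TPM in Zscan4f libraries, 125 ± 4.38 TPM in Zscan4f3A libraries and 128 ± 1.17 TPM in control libraries. Within that sum Ormdl2 took 38.9% ± 1.13 in Zscan4f libraries, 30.6% ± 1.26 in Zscan4f3A libraries and 31.0% ± 2.15 in control libraries. Ormdl3 took 46.3% ± 1.96, 53.4% ± 1.28 and 53.9% ± 1.12 in the same order of groups.

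Cers4, a ceramide synthase that prefers long acyl chains, was lower in Zscan4f libraries. It had 27.7, 28.9 and 25.7 TPM in Zscan4f libraries, 39.0, 33.9 and 40.8 TPM in Zscan4f3A libraries, and 38.5, 43.7 and 39.0 TPM in control libraries. The Zscan4f libraries were below the rest, and Zscan4f3A and control libraries overlapped. The ratio of means was 0.679 to control (log2 difference -0.54, SE 0.08) and 0.723 to Zscan4f3A (-0.45, SE 0.08). Cers4 (ENSMUSG00000008206.16) lies at chr8:4493026-4531680. Cers2, which makes ceramides with very long acyl chains, had 262, 194 and 211 TPM in Zscan4f libraries, 196, 212 and 217 TPM in Zscan4f3A libraries, and 239, 199 and 209 TPM in control libraries. The groups overlapped, and the spread within the Zscan4f group (SD 35.4 TPM) was wider than the differences between group means. Degs1, the desaturase of the last step, ran from 138 to 141 TPM in Zscan4f libraries, 126 to 135 TPM in Zscan4f3A libraries and 133 to 136 TPM in control libraries. It did not overlap with control, but its log2 difference was 0.06 (SE 0.04) and it was not called.

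**Figure D2:**
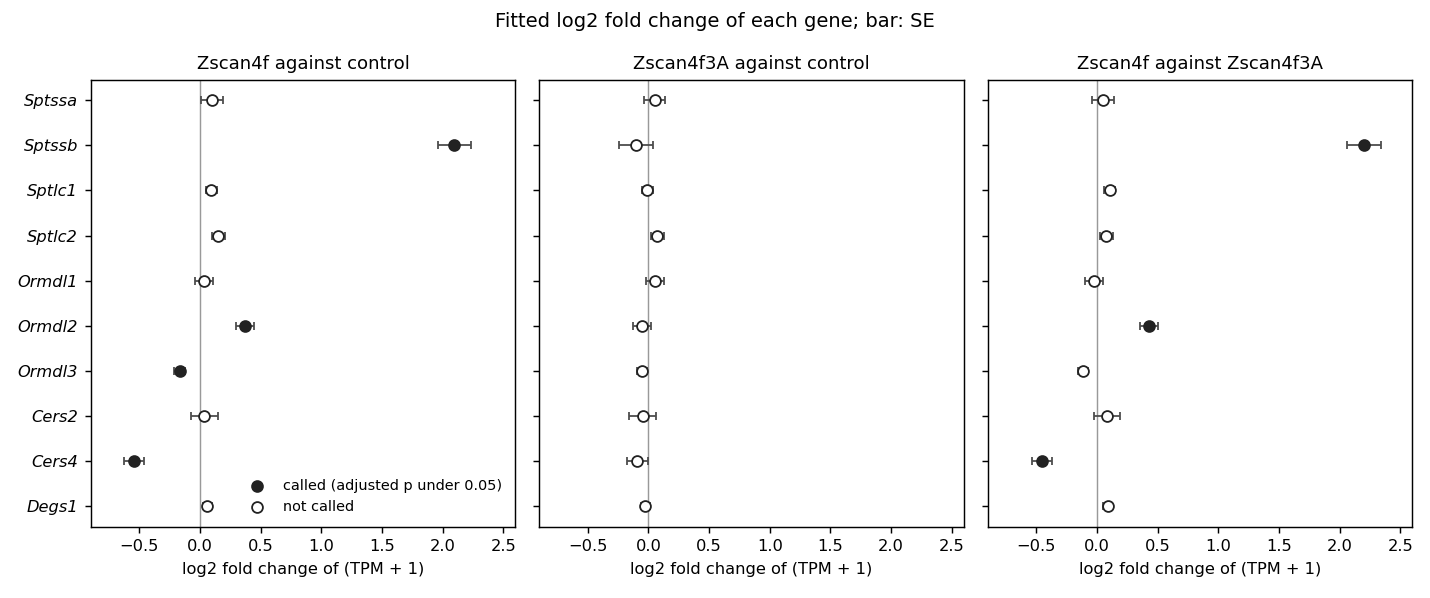
Log2 differences of the 10 members on the log2(TPM + 1) scale in the 3 comparisons, with bars for the SE of the fit and filled points for called genes. Sptssb stands at 2.10 for Zscan4f over control and at -0.10 for Zscan4f3A over control, and every other member lies between -0.54 and 0.43.

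Calls were made with limma where the p, adjusted by Benjamini-Hochberg for the 15837 genes tested, was under 0.05. For Zscan4f against control 2 of the 10 members were called higher, where 8.74% of all genes tested were, and 2 were called lower, where 9.71% were. For Zscan4f against Zscan4f3A, 2 members were called higher beside 7.48% of all genes, and 1 lower beside 7.64%. For Zscan4f3A against control 0 members were called by limma, beside 0.0189% of all genes called higher and 0.0126% lower. At an unadjusted limma p under 0.05 there were 0 members, where 1389 of the 15837 genes tested had one. The members' median log2 difference was 0.08 for Zscan4f over control, 0.08 for Zscan4f over Zscan4f3A and -0.04 for Zscan4f3A over control, and the medians of all genes tested were -0.0029, 0.0021 and -0.012. The members were chosen on these contrasts, and nothing is read from these counts. The comparisons share the Zscan4f or the control libraries and are not independent of each other.

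The rest of the sphingolipid pathway was read from a list of 50 genes, held as 51 gene IDs because Sgms2 has 2, of which 43 passed the filter. For Zscan4f against control 8 rose and 5 fell (18.6% and 11.6% of those tested), beside 8.74% and 9.71% of all genes tested. The median log2 difference of the list was -0.05. Against Zscan4f3A, 6 rose and 2 fell in Zscan4f libraries (14.0% and 4.65%), beside 7.48% and 7.64% of all genes tested. All 8 were also called the same way against control. For Zscan4f3A against control limma called 0, beside 0.0189% of all genes tested called higher and 0.0126% lower. At an unadjusted p under 0.05 there were 2, where 1389 of all genes tested had one. The classes below hold few genes each, and their counts are a description. Genes of the list are named with their limma p-value, adjusted over all genes tested. The list too was chosen with earlier results of these data known. Most of its named genes were picked as called with the smallest p, so these p-values describe them and test no claim about the pathway.

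Among 5 tested genes of ceramide backbone synthesis 1 fell, beside 9.71% of all genes tested against control and 7.64% against Zscan4f3A. Cers6, a ceramide synthase that favours palmitoyl chains, had 12.4, 9.37 and 14.2 TPM in Zscan4f libraries, 29.1, 27.8 and 23.6 TPM in Zscan4f3A libraries, and 28.7, 25.0 and 32.6 TPM in control libraries. No Zscan4f library reached the range of another group. The log2 difference was -1.21 (SE 0.15, adjusted p = 0.00089) against control and -1.11 (SE 0.15, adjusted p = 0.0018) against Zscan4f3A. Cers5, which has a similar chain preference, averaged 100.4 ± 3.00 TPM in Zscan4f libraries, 99.2 ± 5.44 TPM in Zscan4f3A libraries and 95.7 ± 3.59 TPM in control libraries and was not called. Over all 6 ceramide synthase genes the summed level was 368 ± 32.7 TPM in Zscan4f libraries, 378 ± 9.46 TPM in Zscan4f3A libraries and 386 ± 20.8 TPM in control libraries. Cers6 took 3.26% ± 0.629 of it in Zscan4f libraries, 7.12% ± 0.899 in Zscan4f3A libraries and 7.46% ± 0.992 in control libraries. Cers4 took 7.49% ± 0.847, 10.1% ± 1.04 and 10.5% ± 1.23 in the same order of groups, and Cers2 took more than any other of the 6 in every group.

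**Figure D3:**
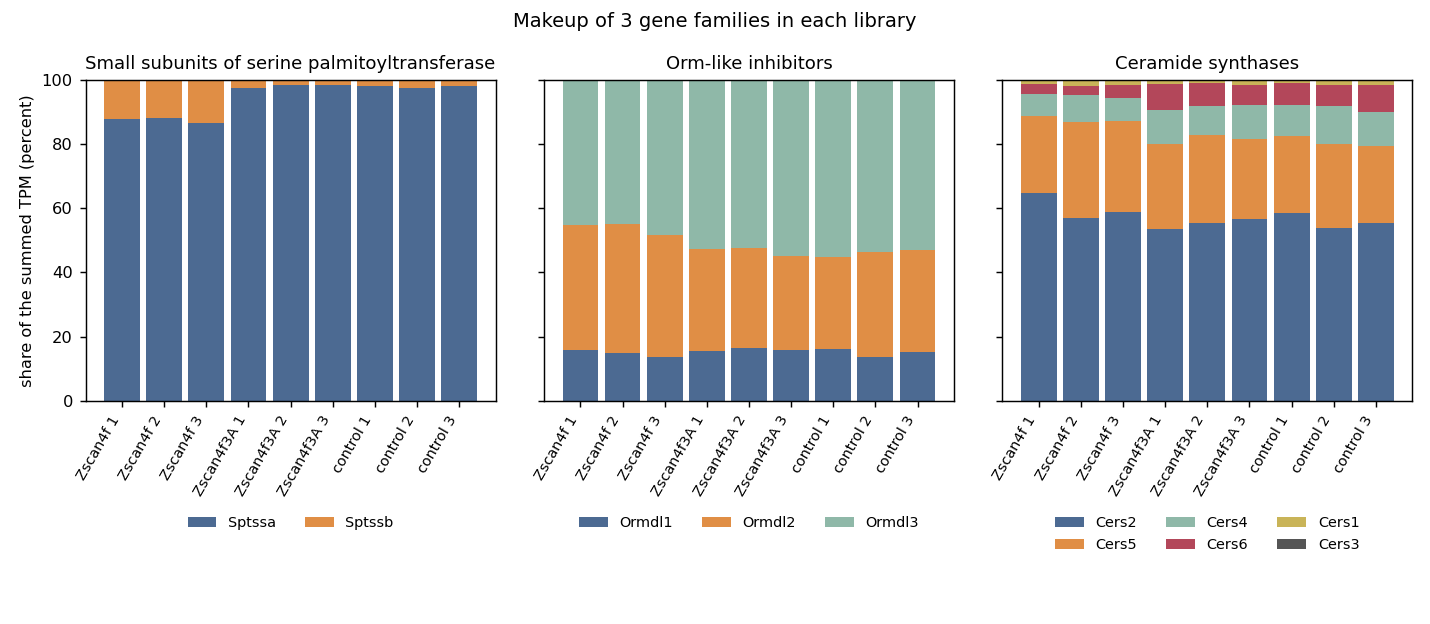
Share of each gene in its family's summed TPM, in percent, for the small subunits, the ORMDL genes and the ceramide synthases, with 1 stacked bar per library and the Zscan4f libraries left, Zscan4f3A in the middle and control right. Sptssb takes 12.5% of the small subunit sum on average in Zscan4f libraries, 1.91% in Zscan4f3A libraries and 2.23% in control libraries.

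Of 13 gene IDs for ceramide transport and head groups 3 rose against control and against Zscan4f3A, and 0 fell. Among all genes tested 8.74% rose and 9.71% fell against control, and 7.48% and 7.64% against Zscan4f3A. Gltp, a glycolipid transfer protein, averaged 163 ± 1.35 TPM in Zscan4f libraries, 93.5 ± 5.29 TPM in Zscan4f3A libraries and 95.2 ± 13.5 TPM in control libraries, a log2 difference of 0.78 over control (SE 0.09, adjusted p = 0.00051) and 0.80 over Zscan4f3A (adjusted p = 0.00068). B4galt5, which makes lactosylceramide, averaged 33.3 ± 0.131 TPM in Zscan4f libraries, 28.9 ± 0.633 TPM in Zscan4f3A libraries and 28.4 ± 1.09 TPM in control libraries, 0.22 over control (SE 0.05, adjusted p = 0.012). Ugt8a, which makes galactosylceramide, averaged 8.06 ± 0.987 TPM in Zscan4f libraries, 4.83 ± 0.866 TPM in Zscan4f3A libraries and 5.41 ± 0.277 TPM in control libraries, 0.49 over control (SE 0.12, adjusted p = 0.026). The Ugt8a call against control was lost without Zscan4f replicate 1 or 2 or any 1 control library (adjusted p 0.0515 to 0.0843), and without a filter on low values. That of B4galt5 against Zscan4f3A was lost without any 1 Zscan4f library and without Zscan4f3A replicate 2 or 3 (adjusted p 0.0630 to 0.0726). Ugcg, which makes glucosylceramide, was near level at 25.7, 24.5 and 26.0 TPM on average in the Zscan4f, Zscan4f3A and control libraries.

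In the breakdown class 1 of 11 tested genes rose against control and 2 fell, beside 8.74% and 9.71% of all genes tested. Against Zscan4f3A 0 were called, beside 7.48% of all genes higher and 7.64% lower. There 4 had an unadjusted p under 0.05, as did 4677 of all 15837 genes tested. Smpd1, the lysosomal sphingomyelinase, averaged 127 ± 3.43 TPM in Zscan4f libraries, 115 ± 5.81 TPM in Zscan4f3A libraries and 108 ± 3.998 TPM in control libraries, 0.23 over control (SE 0.05, adjusted p = 0.010). Smpd3, a neutral sphingomyelinase, was low throughout, at 0.885 ± 0.140 TPM in Zscan4f libraries, 1.57 ± 0.171 TPM in Zscan4f3A libraries and 1.87 ± 0.304 TPM in control libraries (log2 difference from control -0.60, SE 0.13, adjusted p = 0.013). Acer3, an alkaline ceramidase, averaged 12.2 ± 3.00 TPM in Zscan4f libraries, 16.0 ± 4.87 TPM in Zscan4f3A libraries and 21.0 ± 1.75 TPM in control libraries, with an adjusted p of 0.044 that was lost under 9 of 17 alternatives. Among these were leaving out Zscan4f replicate 1 or 2, Zscan4f3A replicate 2 or any 1 control library (adjusted p 0.0630 to 0.130).

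Sphingosine 1-phosphate is the signalling lipid made from the backbone when ceramide is broken down. Of 9 tested genes for its turnover, export and receptors 1 rose and 2 fell in Zscan4f against control, beside 8.74% and 9.71% of all genes tested. Sgpp2, a phosphatase of the lipid, averaged 9.46 ± 0.731 TPM in Zscan4f libraries, 5.57 ± 0.278 TPM in Zscan4f3A libraries and 4.98 ± 0.416 TPM in control libraries, 0.81 over control (SE 0.09, adjusted p = 0.00042). The receptor gene S1pr1 had 42.5, 43.4 and 43.3 TPM in Zscan4f libraries, 56.5, 59.8 and 59.5 TPM in Zscan4f3A libraries, and 60.4, 59.7 and 63.4 TPM in control libraries. It was lower in each Zscan4f library than in any other, with a log2 difference of -0.50 against control (SE 0.04, adjusted p = 0.00012) and -0.43 against Zscan4f3A (SE 0.04, adjusted p = 0.00036). S1pr3, another receptor gene, averaged 12.0 ± 0.299 TPM in Zscan4f libraries, 13.7 ± 0.739 TPM in Zscan4f3A libraries and 15.4 ± 1.15 TPM in control libraries (-0.33, SE 0.07, adjusted p = 0.012 against control), and was not called against Zscan4f3A.

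Of 5 tested genes for fatty acyl and aldehyde steps 3 rose against control, beside 8.74% of all genes tested, and 0 fell, beside 9.71%. Elovl6, which elongates palmitoyl-CoA to stearoyl-CoA, averaged 29.8 ± 1.71 TPM in Zscan4f libraries, 19.3 ± 1.12 TPM in Zscan4f3A libraries and 16.9 ± 2.37 TPM in control libraries. Its log2 difference was 0.79 over control (SE 0.10, adjusted p = 0.00087) and 0.60 over Zscan4f3A (SE 0.10, adjusted p = 0.0047). Aldh3a2, which oxidises the fatty aldehyde released from sphingosine 1-phosphate, averaged 160 ± 1.06 TPM in Zscan4f libraries, 137 ± 4.17 TPM in Zscan4f3A libraries and 139 ± 1.03 TPM in control libraries, 0.20 over control (SE 0.03, adjusted p = 0.0034). Elovl7, another elongase, averaged 9.13 ± 0.850 TPM in Zscan4f libraries, 7.91 ± 0.319 TPM in Zscan4f3A libraries and 6.84 ± 0.263 TPM in control libraries, with an adjusted p of 0.016 against control. That call was lost without Zscan4f replicate 1 or 3 or control replicate 2 (adjusted p 0.0563 to 0.0599). Against Zscan4f3A Elovl7 was not called (limma adjusted p = 0.185). Its Zscan4f3A libraries lay above control and below Zscan4f, without overlap with either.

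**Figure D4:**
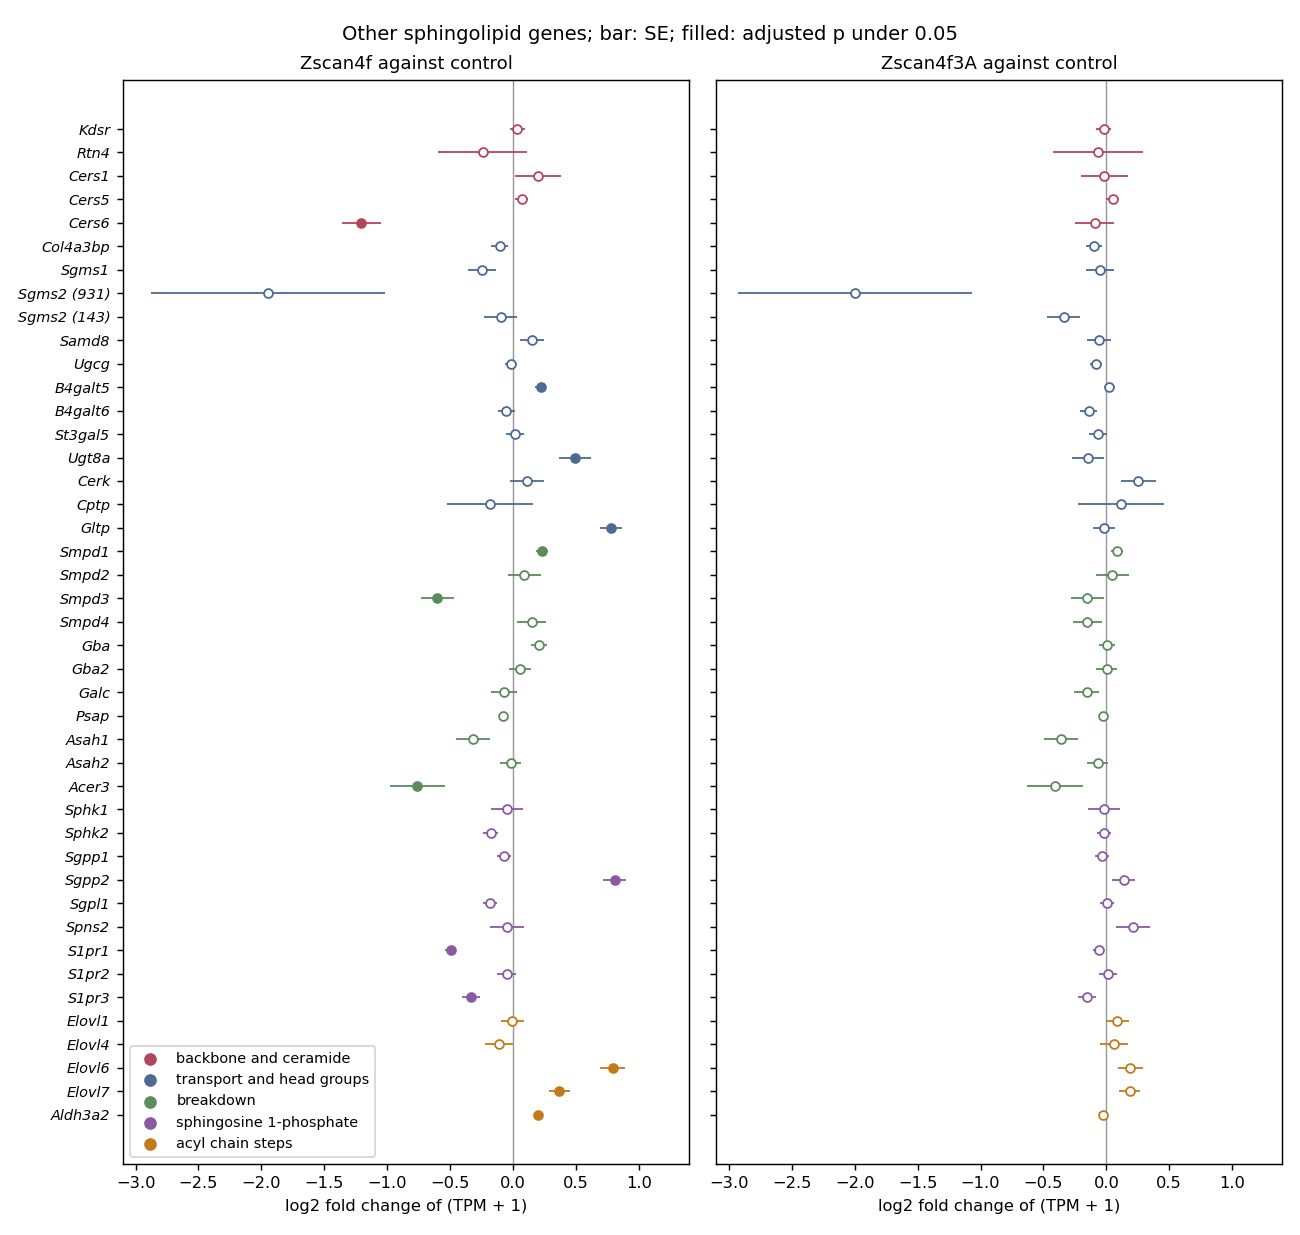
Log2 differences of the 43 tested gene IDs of the wider sphingolipid list on the log2(TPM + 1) scale, coloured by class, for Zscan4f over control (left) and Zscan4f3A over control (right), with bars for the SE and filled points for called genes. Called genes appear in the left panel only, with Cers6 at -1.21 and Sgpp2 at 0.81; Sgms2 is drawn under each of its gene IDs, told apart by the last digits of the ID, and Cert1 appears under its older symbol Col4a3bp.

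Of 10907 genes ranked, 5 are named whose log2(TPM + 1) followed that of Sptssb most closely over the 9 libraries. Bmper, a secreted BMP-binding protein, came first (Pearson r 0.995), then Gla, a lysosomal galactosidase (0.992). Gpx4, a peroxidase that reduces lipid peroxides (0.991), Fndc3c1 (0.991) and Cct3, a chaperonin subunit (0.990), followed. The points fall into 3 high Zscan4f libraries and 6 low ones, and the r values are a description. Bmper averaged 50.9 TPM in Zscan4f libraries, 33.0 TPM in Zscan4f3A libraries and 32.6 TPM in control libraries, so its ratio was smaller than that of Sptssb. Fndc3c1 averaged 8.26 TPM in Zscan4f libraries, 0.913 TPM in Zscan4f3A libraries and 0.944 TPM in control libraries. Within 500 kb of Sptssb the tested genes with a name were Nmd3, B3galnt1 and Ppm1l. None of these 3 was called in Zscan4f against control. B3galnt1, which makes globoside, averaged 90.1 ± 2.03 TPM in Zscan4f libraries, 79.6 ± 1.22 TPM in Zscan4f3A libraries and 83.4 ± 1.15 TPM in control libraries, and was called higher only against Zscan4f3A (adjusted p = 0.011).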

How the data were processed

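RNA-seq values of 9 libraries were used, grouped by their titles. A title that names no overexpression was taken as control. Reads were aligned with HISAT2 2.1.0 and quantified with StringTie, per the submitters' processing notes. The sources used here name no genome build or annotation. All 10 members have identical coordinates in a GRCm38 annotation, as do 97.7% of the gene IDs found in it. The authors' TPM values, per kilobase and scaled to the same sum per library, were the main unit. The authors' FPKM values served as an alternative. The deposited coverage is the mean read depth over a gene. The 15 gene IDs with several entries were summed. The deposited files hold no counts, so no count test or counting interval was used.

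The 15837 genes that reached a TPM of 1 in 3 or more libraries were fitted as log2(TPM + 1) with limma 3.58.1 in R 4.3.3 (3 group means, empirical Bayes with a trend, two-sided, Benjamini-Hochberg). Tables and figures used Python 3.11.15. The code was tested on simulated data. The 10 members and the gene lists were chosen with earlier results of these data known. Named genes were the members, up to 4 called genes per pathway class by smallest p, and the 5 genes closest to Sptssb with a group mean TPM of at least 5. Genes named outside this rule (Sptlc3, Cers5, Ugcg, the overlapping and neighbouring genes) were chosen after their values were seen. The labels give no batch, and promoter letters come from RefSeq.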

Additional observations from a re-analysis of the deposited data

How the results depend on the processing

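Among the 17 alternatives were FPKM, pseudocount 0.1, quantile normalization, no filter, median-of-ratios scaling, a minimum TPM of 5, and only the groups compared. The rest were the replicate block and leaving out each of the 9 libraries. Signs were followed for the members and for the 13 pathway genes called in the fit reported. No called difference of these genes reversed in sign, while 12 uncalled ones did. The largest of these 12 in the fit reported was 0.08. Signs of the other pathway genes were not followed. Of those, Cptp had -0.18 for Zscan4f over control in the fit reported. Without Zscan4f replicate 2 it was called higher. Leaving out 1 library at a time, 3 to 4 members were called for Zscan4f against control, 3 for Zscan4f against Zscan4f3A and 0 for Zscan4f3A against control. The wider list had 10 to 16, 7 to 9 and 0 to 1 called in the same order, where the 1 was Asah1, lower without control replicate 2. The calls of Cers6 against control and against Zscan4f3A were made in all 17. Smpd1 was called against Zscan4f3A without Zscan4f3A replicate 1 (adjusted p = 0.0375), and Smpd3 with a pseudocount of 0.1 (adjusted p = 0.0477). Ormdl3 also lost its call against control when only the groups compared were fitted; the cause was not tested.

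Among the genes whose signs were followed, the log2 differences that changed sign were near 0 in the fit reported. The cause was not tested. Leaving out 1 library at a time, Cers2 ran from -0.0885 to 0.127, and Ormdl1 from -0.0178 to 0.0874, for Zscan4f against control. For Zscan4f against Zscan4f3A the range was -0.0423 to 0.173 for Cers2, -0.0535 to 0.0304 for Ormdl1 and -0.0118 to 0.149 for Sptssa. For Zscan4f3A against control it was -0.102 to 0.0290 for Cers2, -0.112 to 0.0036 for Ormdl2, -0.0328 to 0.0073 for Sptlc1, -0.0435 to 0.0082 for Degs1, -0.0055 to 0.0449 for B4galt5 and -0.0835 to 0.0940 for Gltp. With FPKM Sptlc1 came to 0.0121, Gltp to 0.0044 and Aldh3a2 to 0.0011 for Zscan4f3A against control. Quantile normalization put Cers2 at -0.0045 for Zscan4f against control.

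Over all genes tested, deviations of libraries with the same replicate number correlated at -0.0792 to 0.0534, and those with different numbers at -0.0481 to 0.0540. The numbers were therefore not taken as pairs. Between Zscan4f3A and control the values were 0.0362 to 0.0534 for the same number and -0.0481 to -0.0015 for different ones. Between Zscan4f and control all same-number values were below 0. Single genes could still follow the number. Sptssa was highest in replicate 1 and lowest in replicate 3 of every group, and Dnajc14 was highest in replicate 1 of every group. With the replicate block 3, 3 and 0 members and 13, 7 and 0 genes of the wider list were called for Zscan4f against control, Zscan4f against Zscan4f3A and Zscan4f3A against control. Ormdl3, Ugt8a and Acer3 lost their calls against control there, and B4galt5 its call against Zscan4f3A. Without counts, depth limits what can be said of Sptssb outside the Zscan4f libraries.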

Other observations

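A few pathway genes had uneven estimates within a group, chosen here after their values were seen. Rtn4 had 133, 288 and 132 TPM in Zscan4f libraries, 212, 137 and 252 TPM in Zscan4f3A libraries, and 240, 243 and 144 TPM in control libraries. Sgms2, under its chromosome 3 gene ID, had 0, 6.61 and 0 TPM in Zscan4f libraries, 5.85, 0 and 0 TPM in Zscan4f3A libraries, and 7.26, 6.32 and 6.23 TPM in control libraries. Its other gene ID lies on a patch scaffold and was above 0 in every library. There it had 12.5, 11.4 and 10.6 TPM in Zscan4f, 10.7, 10.1 and 8.02 TPM in Zscan4f3A, and 14.6, 11.6 and 11.1 TPM in control libraries. The zeros under the chromosome 3 ID thus do not mean that Sgms2 was absent. Cptp, a ceramide 1-phosphate transfer protein, had 20.9, 7.23 and 22.6 TPM in Zscan4f libraries and 16.4 to 19.5 TPM in the other 6. Asah1, the acid ceramidase, had 341, 353 and 352 TPM in Zscan4f libraries, 340, 326 and 349 TPM in Zscan4f3A libraries, and 490, 335 and 501 TPM in control libraries. Nmd3, the nearest named gene to Sptssb among those tested, had 18.5, 35.1 and 32.2 TPM in Zscan4f libraries, 20.5, 15.8 and 20.0 TPM in Zscan4f3A libraries, and 16.6, 19.0 and 21.0 TPM in control libraries.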
